A study of Mus musculus with 6 samples.

Results

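The mitochondrial respiratory chain was examined in the left ventricular apex of mice with and without PTIP, through 96 genes chosen by symbol out of 18193 genes measured. The rule took every gene whose symbol begins with Nduf, Sdha, Sdhb, Sdhc, Sdhd, Uqcr, Cox4, Cox5, Cox6, Cox7, Cox8 or Atp5, together with Cyc1 and Cycs. No expression value entered the choice. Each gene was read from the probe set that names it alone and has the highest mean over the 6 arrays. By symbol, 35 genes belong to complex I, 4 to complex II, 9 to complex III, 16 to complex IV and 17 to complex V (ATP synthase), 1 is Cycs (cytochrome c), and 14 are assembly factors and related proteins.

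The series compared 3 PTIP KO mice with 3 PTIP+ mice, all female, 8 weeks old and on a mixed C57B6 and B6129 background, with 1 array per mouse. In the PTIP KO mice, 1 allele of Paxip1, which encodes PTIP, was floxed and the other null, and the mice carried a transgene for a fusion of Cre recombinase with a modified estrogen receptor under the alpha myosin heavy chain promoter, which is active in cardiomyocytes. In the PTIP+ mice the second allele was wild-type, beside the floxed one, and their labels name no transgene. Both groups received tamoxifen (20 mg/kg), and RNA was taken 5 days after injection according to one label, while another label gives 5 days of treatment. The comparison therefore holds the induced deletion, the null allele and the transgene together, and these cannot be told apart. Other cell types of the apex keep the floxed allele.

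As a check of the labels, Paxip1 was lower in all 3 PTIP KO mice than in all PTIP+ mice on each of its 4 probe sets, and it fell on 3 of them (limma, adjusted p under 0.05). Its brightest probe set differed by -0.95 (SE 0.16, limma adjusted p = 0.106). The 6 arrays correlated between 0.989 and 0.995 over all probe sets, and their median log2 values lay between 5.15 and 5.26. Cardiomyocyte markers were present throughout, with a mean over 8 markers of 13.37 to 13.45 in each mouse. The 3' minus 5' signal of the Gapdh control probe sets, which rises as RNA degrades, was 0.90 to 0.93 in the PTIP KO mice and 1.27, 0.66 and 0.79 in PTIP+ mice 1 to 3. In such bulk tissue, fewer cells of a type and less RNA per cell cannot be told apart.

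The respiratory chain carries electrons from food-derived carriers to oxygen and stores the energy as a proton gradient across the inner mitochondrial membrane. Complex I takes electrons from NADH and complex II from succinate, both pass them to ubiquinone, complex III passes them on to cytochrome c, and complex IV hands them to oxygen. Complex V lets protons flow back and makes ATP. Most subunits are encoded in the nucleus, and a small set, which has other symbols and is not among the genes examined, is encoded by mitochondrial DNA. The beating heart relies on this pathway for nearly all of its ATP, and its mitochondria carry muscle-type isoforms of several complex IV subunits.

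Sequences ahead of the transcription starts were examined first, because nuclear genes of the chain are known to share binding sites for a few transcription factors, among them NRF1. Of the 96 genes, 79 matched a RefSeq promoter window (GRCm38.p6) of 300 bases, from 250 before to 50 after the start. The NRF1 motif (GCGC, then A, then any base, then GCGC), searched on both strands as were all motifs here, was found in the windows of 19 of the 79 genes (24.1%), against 8.61% of 14452 genes on the array and 5.19% of all 27025 genes in the promoter table. By complex, it was present for 5 of 32 genes of complex I, 2 of 3 of complex II, 1 of 5 of complex III, 1 of 11 of complex IV, 6 of 15 of complex V and 4 of 12 assembly factors and related genes. The ETS-type motif CCGGAAGT was found for 5 of the 79 genes (6.33%, against 6.62% of genes on the array). The YY1 motif AAGATGGC was found for 10 (12.7%, against 4.07%), the estrogen-related receptor motif TCAAGGTCA for 2 (2.53%, against 0.401%), and TATAAA for 9 (11.4%, against 11.5%). Matches of different motifs shared bases in the windows of 0 of the 79 genes. A match describes the letters of the window and is not a measured binding site. The 5 windows below show 1 gene of each complex, the bright gene with the smallest p that held an NRF1 or ETS motif, in lower case with those motifs in capitals.
Ndufa8, chr2:36049289-36049588, strand minus: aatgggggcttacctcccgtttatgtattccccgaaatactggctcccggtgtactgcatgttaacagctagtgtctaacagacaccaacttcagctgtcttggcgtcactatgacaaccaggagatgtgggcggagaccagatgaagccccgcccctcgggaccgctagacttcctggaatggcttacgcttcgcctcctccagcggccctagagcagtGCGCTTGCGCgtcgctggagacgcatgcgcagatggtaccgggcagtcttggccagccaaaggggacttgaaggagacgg
Sdhd, chr9:50603800-50604099, strand minus: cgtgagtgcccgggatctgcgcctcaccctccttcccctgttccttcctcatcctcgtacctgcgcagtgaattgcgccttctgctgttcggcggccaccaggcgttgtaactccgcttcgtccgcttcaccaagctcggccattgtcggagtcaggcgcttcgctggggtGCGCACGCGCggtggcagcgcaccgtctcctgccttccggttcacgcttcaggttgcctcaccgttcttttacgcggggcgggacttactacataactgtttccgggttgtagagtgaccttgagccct
Uqcrh, chr4:116075021-116075320, strand minus: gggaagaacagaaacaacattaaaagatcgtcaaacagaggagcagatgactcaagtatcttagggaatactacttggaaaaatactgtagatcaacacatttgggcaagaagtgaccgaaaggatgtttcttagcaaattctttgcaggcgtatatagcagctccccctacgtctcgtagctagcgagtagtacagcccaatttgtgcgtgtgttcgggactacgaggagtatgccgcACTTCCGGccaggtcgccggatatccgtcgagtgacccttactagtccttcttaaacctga
Cox6a1, chr5:115348909-115349208, strand minus: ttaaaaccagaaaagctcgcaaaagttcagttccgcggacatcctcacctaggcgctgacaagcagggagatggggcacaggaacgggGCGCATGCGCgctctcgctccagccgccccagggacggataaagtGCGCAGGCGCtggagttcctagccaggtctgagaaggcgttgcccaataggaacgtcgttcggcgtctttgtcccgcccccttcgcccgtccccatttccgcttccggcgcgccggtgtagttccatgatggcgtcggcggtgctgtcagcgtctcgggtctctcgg
Atp5g2, chr15:102670998-102671297, strand minus: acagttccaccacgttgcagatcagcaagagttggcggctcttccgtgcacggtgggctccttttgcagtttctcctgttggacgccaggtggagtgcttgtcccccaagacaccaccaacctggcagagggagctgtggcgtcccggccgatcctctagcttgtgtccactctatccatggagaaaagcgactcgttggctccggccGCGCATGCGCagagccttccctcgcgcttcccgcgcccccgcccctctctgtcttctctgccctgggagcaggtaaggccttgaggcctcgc
The NRF1 motif starts 30 bases before the start of Ndufa8 (position -30), at -79 in Sdhd, at -162 and -117 in Cox6a1 and at -42 in Atp5g2, and Uqcrh holds the ETS motif at -11. Positions are those of the first capital, whichever strand matches. The marks in Ndufa8 and Uqcrh are read on the opposite strand, where they have the letters given above. The median difference between PTIP KO and PTIP+ mice was -0.034 over the 19 genes with the NRF1 motif and -0.024 over the 60 without it, on the log2 scale. By sign, 16 of the 19 and 42 of the 60 were lower, and this difference was not tested.

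Read on their brightest probe sets, most respiratory chain genes differed little between PTIP KO and PTIP+ hearts, and dimmer probe sets of some of the same genes, given further on, differed more. None of the 96 genes passed in the comparison (limma, adjusted p under 0.05 over all 45037 probe sets; the smallest adjusted p was 0.534), where 0.286% of all genes did. At an unadjusted limma p under 0.05, 1 gene was lower and 0 were higher, against 3.8% and 5.47% of all genes (9.27% in either direction). The median difference, PTIP KO minus PTIP+, was -0.025 on the log2 scale over the 96 genes and 0.022 over all genes. Of the 96, 83 (86.5%) differed by less than 0.1, against 43.1% of all genes.

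The intervals describe the differences as the brightest probe sets read them. For 91 of the 96 genes the 95% confidence interval of the difference, from limma's moderated standard error, lay within a 1.5-fold change in either direction. So did the intervals of 12817 of all 18193 genes and of 432 of 445 other genes at a mean level of 12 or more. Among the 96, the exceptions were Ndufb4, Cox6b2, Cox7b2, Cox7c and Ndufa4l2, whose probe sets read between 3.46 and 8.63. Among the 73 genes with a mean level of 12 or more, the intervals reached from 0.778-fold to 1.28-fold. The highest value in the table is 14.1, and array signal near the top of its range can understate a change. How far it did so here was not tested. The differences of these 73 genes had a median size of 0.034, and those of 445 other genes at 12 or more had a median size of 0.051, and 328 of those 445 (73.7%) lay within 0.1.

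**Figure D1:**
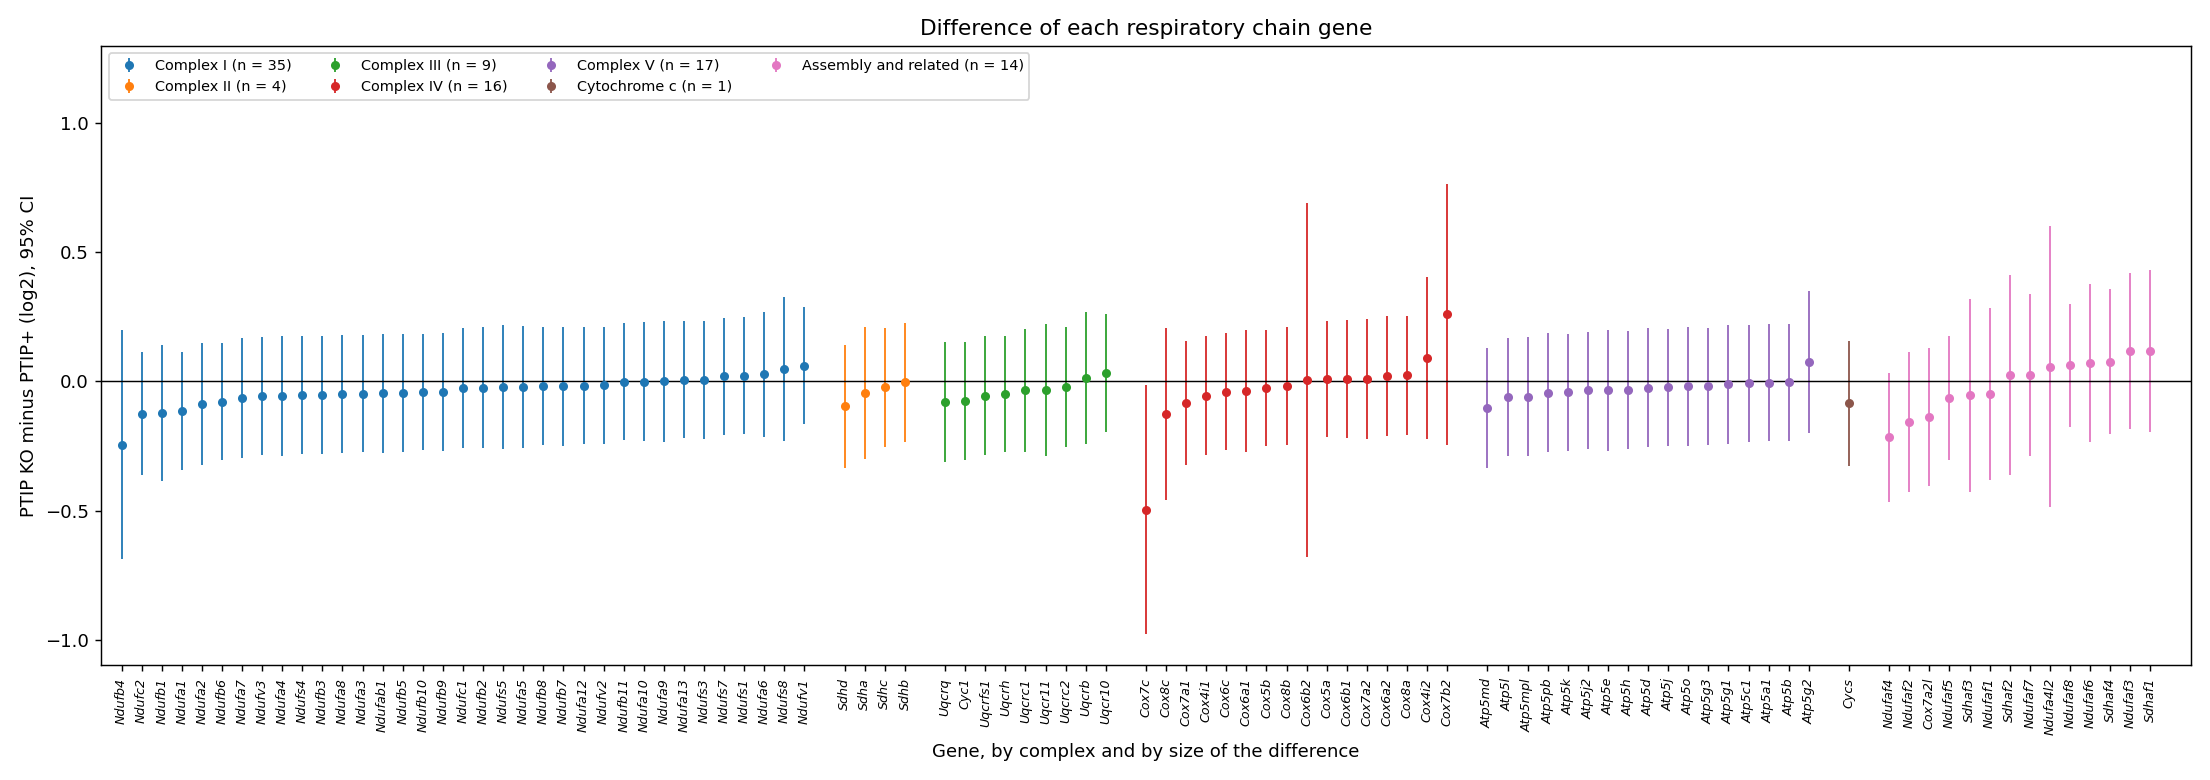
Difference in log2 expression between PTIP KO and PTIP+ mice (3 each) for each of the 96 genes, by complex, with the 95% confidence interval from limma as bars. Points lie close to 0 with intervals of like width, except for a few genes read on dim probe sets, such as Cox7c, Cox7b2, Cox6b2 and Ndufb4.

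The genes also varied little from mouse to mouse. The SD within groups had a median of 0.039 over the 96 genes, against 0.071 over the other genes at 12 or more and 0.172 over all genes. Over the 6 arrays, the range from the lowest to the highest value had a median of 0.116, against 0.207 over the other genes at 12 or more and 0.485 over all genes. It stayed under 0.5 for 90 of the 96, for 414 of the 445 other genes at 12 or more and for 9534 of all 18193 genes. In limma, the standard error of a bright gene is set largely by the spread of all probe sets, with a median of 0.098 over the 73 bright genes. Without moderation, 8 genes were lower and 1 was higher at an unadjusted p under 0.05 (3.74% and 5.49% of all genes), and none passed after adjustment.

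Small negative differences were common. By sign, 69 of the 96 genes (71.9%) were lower in the PTIP KO mice, against 44.9% of all genes. All 3 PTIP KO mice were below all 3 PTIP+ mice for 17 genes (17.7%, against 6.57% of all genes), and above them for 1 (1.04%, against 9.44%). The signs and these counts depended on the scale. Centring shifts the difference of every gene by the same amount and so keeps their order. With each array centred on its median, 37 of the 96 genes were lower and 59 higher, against 6411 lower and 11782 higher of all 18193 genes. The median difference turned to 0.017, while that of all genes was 0.063 on that scale. There the groups were apart downwards for 1 gene and upwards for 5, against 3.93% and 12.87% of all genes. With renewed quantile normalization, 21 genes were apart downwards (21.9%, against 7.2% of all genes).

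PTIP KO mouse 1 had the lowest value of the 6 for 51 of the 96 genes. PTIP+ mouse 3 had the lowest value for 0 of them. The median deviation of the 96 genes from their 6-array means was -0.037, -0.010 and 0.003 in PTIP KO mice 1 to 3 and 0.010, 0.009 and 0.031 in PTIP+ mice 1 to 3. The groups did not overlap, but PTIP KO mouse 3 lay 0.01 or less below PTIP+ mice 1 and 2. Over all genes the same measure was 0.009, 0.003 and 0.014 against 0.023, -0.022 and -0.027, with PTIP+ mouse 1 highest and the groups overlapping. Over the 445 other genes at 12 or more it was -0.016, 0.015 and 0.012 against -0.002, -0.007 and 0.003. There PTIP KO mouse 1 was lowest too, and the groups overlapped. The mean over cardiomyocyte markers was also lowest in PTIP KO mouse 1, at 13.37, and lay between 13.40 and 13.45 in the other 5 mice. Its part in the lower readings was not tested.

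**Figure D2:**
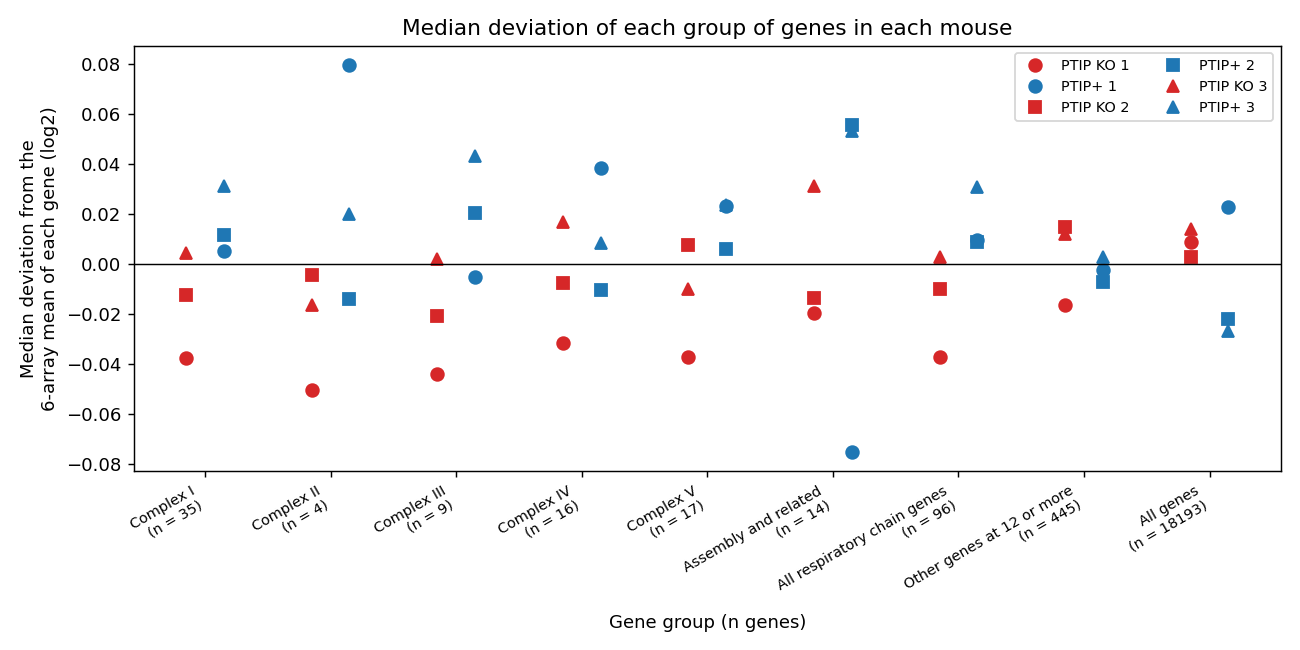
Median deviation (log2) of the genes of each group, other than the single gene Cycs, from their own means over the 6 arrays, with 1 point per mouse. PTIP KO mouse 1 is lowest for complexes I to V and also for the other genes at 12 or more. The points plotted lie within 0.08 of 0, and over all genes PTIP KO mouse 1 is not the lowest.

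Complex I, the NADH dehydrogenase, showed a median difference of -0.026 over its 35 genes, 27 of them lower, and 31 lay within 0.1. Ndufv1, the flavoprotein that binds NADH, read 13.52, 13.50 and 13.52 in PTIP KO mice 1 to 3 and 13.43, 13.47 and 13.46 in PTIP+ mice 1 to 3. All 3 PTIP KO values were above the PTIP+ values, by a difference of 0.061 (SE 0.097, limma adjusted p = 0.916). An exact two-sided permutation test gave p = 0.1, and groups of 3 mice can give no smaller value; no other gene of the chain was below it. Its further probe sets differed by 0.047 and 0.048, also without overlap. Ndufs1, which carries iron-sulfur clusters, read 12.49, 12.53 and 12.49 against 12.50, 12.46 and 12.49, and the groups overlapped.

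The complex I genes with the smallest p were accessory subunits of its membrane arm. Ndufc2 read 12.80, 12.82 and 12.90 in the PTIP KO mice and 13.02, 12.91 and 12.96 in the PTIP+ mice, a difference of -0.12 (SE 0.10, limma adjusted p = 0.806), with no overlap between groups. Its other probe sets differed by -0.147, -0.105 and -0.068, each with overlap. Ndufa1 read 12.38, 12.41 and 12.47 against 12.53, 12.54 and 12.54, a difference of -0.115 (SE 0.098, limma adjusted p = 0.819), again with no overlap. On Ndufa1 the PTIP+ mice had an SD of 0.007 (n = 3), and the PTIP KO mice below them one of 0.047 (n = 3). Ndufb4 had the largest difference of complex I, -0.25 (SE 0.19), but on a dim probe set at 3.46 whose groups overlapped. Ndufa4, named for complex I and found with complex IV in purified enzyme, differed by -0.056 (SE 0.099), and counting it in complex IV left the median of complex I at -0.025 and moved that of complex IV from -0.006 to -0.017 (9 lower, 8 higher).

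Complex II, succinate dehydrogenase, feeds electrons from the citric acid cycle into the chain. All 4 of its genes were lower by sign, with a median of -0.034. On the centred scale 2 of 4 were, as were 6411 of all 18193 genes. Sdhd, a membrane anchor, read 11.91, 12.03 and 12.01 in the PTIP KO mice and 12.14, 12.05 and 12.05 in the PTIP+ mice, a difference of -0.095 (SE 0.102, limma adjusted p = 0.860). The groups did not overlap, but the nearest mice read 12.03 and 12.05. Sdha, the flavoprotein that oxidises succinate, read 12.64, 12.76 and 12.69 against 12.87, 12.66 and 12.70, and PTIP+ mouse 1 was the highest. Without that mouse its difference was 0.018. Sdhc, the other anchor, differed by -0.023 (SE 0.098) and Sdhb, the iron-sulfur subunit, by -0.003 (SE 0.098).

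Complex III, which passes electrons from ubiquinol to cytochrome c, had a median difference of -0.034 over 9 genes, 7 of them lower, all within 0.1. Uqcrq, a small subunit, read 12.55, 12.56 and 12.56 in the PTIP KO mice and 12.57, 12.66 and 12.67 in the PTIP+ mice, a difference of -0.079 (SE 0.099, limma adjusted p = 0.889). The groups did not overlap, but PTIP+ mouse 1 lay just above the PTIP KO mice. The further Uqcrq probe sets were dim, at 4.71, 3.04 and 2.72. They differed by -0.48, -0.13 and 0.070, the first of them without overlap. Cyc1, cytochrome c1, differed by -0.075 (SE 0.098) and Uqcrfs1, the Rieske iron-sulfur protein, by -0.054 (SE 0.099). Cycs, the mobile cytochrome c that links complex III with complex IV, read 12.79, 12.94 and 12.93 against 13.00, 12.92 and 12.99, a difference of -0.085 (SE 0.104, limma adjusted p = 0.884). Its lowest value was in PTIP KO mouse 1, and the other PTIP KO mice lay above PTIP+ mouse 2.

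Complex IV, cytochrome c oxidase, had 8 genes lower and 8 higher, with a median of -0.006. The 1 gene of the whole chain with an unadjusted limma p under 0.05 was Cox7c, a small structural subunit. It read 7.20, 6.41 and 6.92 in the PTIP KO mice and 7.39, 7.16 and 7.46 in the PTIP+ mice, a difference of -0.50 (SE 0.21, unadjusted p = 0.0447, limma adjusted p = 0.534). The groups overlapped, since PTIP KO mouse 1 was above PTIP+ mouse 2, and without PTIP KO mouse 2 the difference was -0.28. The second Cox7c probe set, at 3.75, differed by -0.20.

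Several complex IV subunits exist as a muscle form and a form found in most tissues, and no gene of either form passed the test. Cox6a2, the muscle form of subunit 6a, read 13.66, 13.56 and 13.56 in the PTIP KO mice and 13.57, 13.56 and 13.58 in the PTIP+ mice, a difference of 0.020 (SE 0.099). Cox6a1, its counterpart, differed by -0.035 (SE 0.101), and by 0.00643 on the centred scale. Cox7a1, the muscle form of subunit 7a, read 12.17, 12.29 and 12.29 against 12.36, 12.28 and 12.35, a difference of -0.084 (SE 0.102), with PTIP KO mouse 1 lowest. Cox7a2 differed by 0.009 (SE 0.099), with -0.00778 after renewed quantile normalization. Cox8b, the muscle form of subunit 8, differed by -0.017 (SE 0.097; 0.025 on the centred scale) and Cox8a by 0.024 (SE 0.099).

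Of the paired genes, Cox4i1, the common form of subunit 4, had groups that did not overlap, at 12.57, 12.66 and 12.62 in the PTIP KO mice and 12.68, 12.66 and 12.67 in the PTIP+ mice. Its difference was -0.055 (SE 0.098, limma adjusted p = 0.927), and the nearest mice, PTIP KO mouse 2 and PTIP+ mouse 2, both read 12.66. Cox4i2, an oxygen-sensitive alternative form known from lung, differed by 0.090 (SE 0.135) at a level of 7.46 and by -0.00748 without PTIP+ mouse 1. Genes of forms best known from the testis were dim or variable. Cox7b2 differed by 0.26 (SE 0.22) and Cox8c by -0.13 (SE 0.14), at levels of 4.66 and 4.51. Cox7b2 ran from 0.048 without PTIP+ mouse 2 to 0.50 without PTIP+ mouse 1, and Cox8c was -0.0095 without PTIP+ mouse 1. Cox6b2 spanned 7.87 to 8.93 over the 6 mice, the range from PTIP+ mouse 2 to PTIP+ mouse 3, and differed by 0.005 (SE 0.293).

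**Figure D3:**
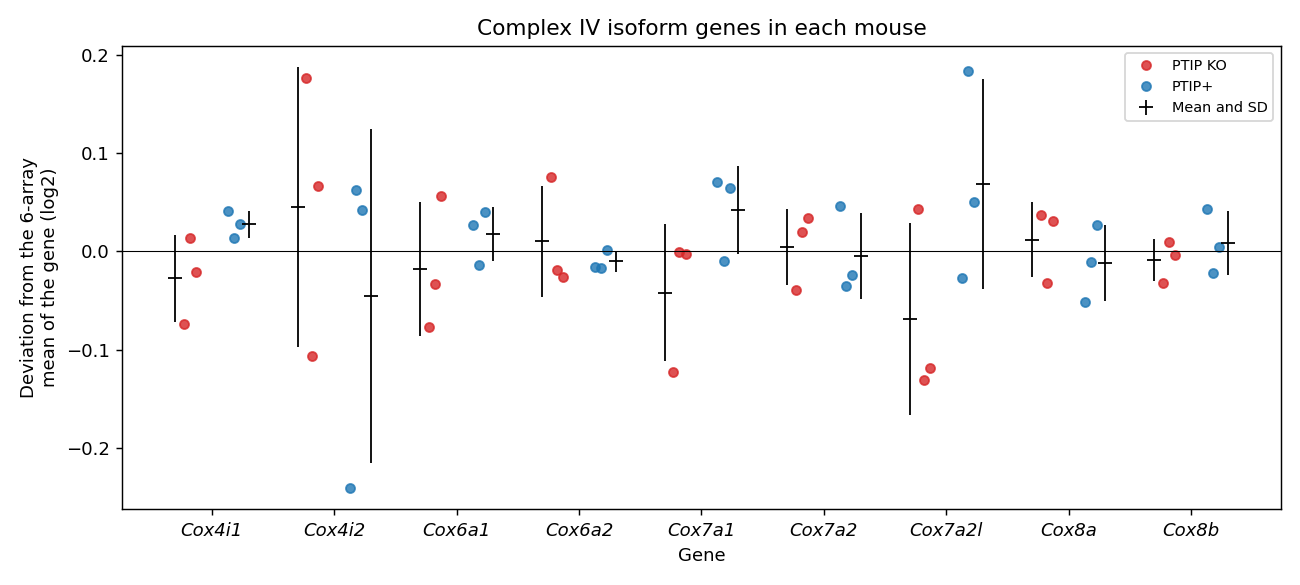
Deviation (log2) from the 6-array mean of each complex IV isoform gene and of Cox7a2l, with 1 point per mouse and the mean and SD of each group (3 mice each). The groups overlap for all genes except Cox4i1, whose nearest mice read almost alike. The spread is widest for Cox4i2 and Cox7a2l.

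Complex V, the ATP synthase, had 16 of 17 genes with a negative sign, at a median of -0.023. With arrays centred on their medians, 5 of the 17 were lower, as were 6411 of all 18193 genes. Atp5a1 and Atp5b, which encode subunits of the catalytic part, were level, with differences of -0.0041 (SE 0.096) and -0.0036 (SE 0.096). Atp5md, a small subunit of the dimer interface, read 12.12, 12.21 and 12.21 in the PTIP KO mice and 12.25, 12.30 and 12.28 in the PTIP+ mice, a difference of -0.102 (SE 0.099, limma adjusted p = 0.847), with no overlap. Atp5l, subunit g of the membrane part, differed by -0.060 (SE 0.098). The gene with the positive sign was Atp5g2, whose product forms the rotating ring together with those of Atp5g1 and Atp5g3. It read 12.36, 12.39 and 12.30 against 12.10, 12.38 and 12.34, a difference of 0.076 (SE 0.118), which was -0.012 without PTIP+ mouse 1. Atp5g1 and Atp5g3 differed by -0.010 (SE 0.098) and -0.019 (SE 0.097).

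Assembly factors and related proteins read lower on the array than the subunits and varied more, with a median SD within groups of 0.147 over 14 genes. Their median difference was 0.025, with 8 genes higher and 6 lower. Ndufaf4, an assembly factor of complex I, had the smallest p. It read 10.67, 10.75 and 10.85 in the PTIP KO mice and 11.00, 10.90 and 11.02 in the PTIP+ mice, a difference of -0.22 (SE 0.11, unadjusted p = 0.0799, limma adjusted p = 0.624). No PTIP KO mouse reached a PTIP+ mouse, and its second probe set differed by -0.27 with overlap. Ndufaf2, another complex I factor, differed by -0.16 (SE 0.12). Cox7a2l, which helps complexes III and IV join into supercomplexes, differed by -0.14 (SE 0.11), and its other probe sets by -0.126 and -0.128.

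The 54 genes with several probe sets gave 94 further readings, none of which passed (limma, adjusted p under 0.05; 0.191% of all probe sets passed). The 60 further probe sets at 10 or more had a median difference of -0.026, with none at an unadjusted p under 0.05. The 34 dimmer ones ranged from -0.99 to 0.40, with 6 lower and 1 higher at that p, where 4.59% and 4.48% of all probe sets were. Over the 94, the PTIP KO mice were all below the PTIP+ mice for 14 probe sets and all above for 5, against 6.73% and 7.64% of all probe sets. The largest difference was on a dim Cox5b probe set, which read 6.49, 6.11 and 6.47 in the PTIP KO mice and 7.69, 6.83 and 7.52 in the PTIP+ mice, a difference of -0.99 (SE 0.23, limma adjusted p = 0.238). The brightest Cox5b probe set, at 13.9, differed by -0.026. A dim Sdha probe set read 5.20, 5.18 and 5.19 against 5.71, 5.84 and 6.02, a difference of -0.66 (SE 0.12, limma adjusted p = 0.121), while the bright Sdha probe sets differed by -0.045 and 0.027. The groups did not overlap on either dim probe set. A Uqcr10 probe set went the other way, at 8.66, 8.52 and 8.69 against 8.09, 8.23 and 8.34, a difference of 0.40 (SE 0.12, limma adjusted p = 0.337). A second further Uqcr10 probe set, at 9.21, differed by 0.22, again with all PTIP KO mice above, while the bright one differed by 0.034.

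**Figure D4:**
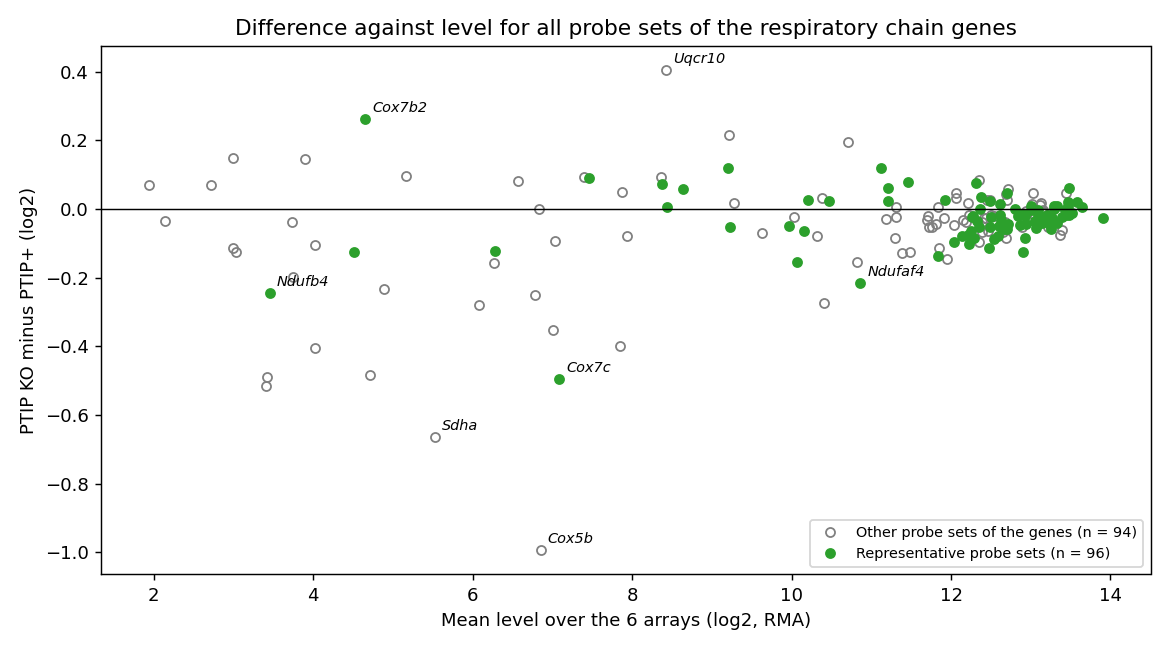
Difference in log2 expression (PTIP KO minus PTIP+) against the mean level over the 6 arrays for the 96 representative probe sets and 94 further probe sets of the same genes. Probe sets at 12 or more lie close to 0, while dim further probe sets of Cox5b and Sdha lie farthest from it, below 0.

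Genes that serve the chain from outside the symbol rule gave no call either. None of 196 genes in 10 lists passed (limma, adjusted p under 0.05), where 0.286% of all genes did. At an unadjusted p under 0.05, 4 were higher and 3 lower, against 5.47% and 3.8% of all genes. Among 21 measured genes of complex IV assembly and copper delivery the median difference was -0.007, and the smallest p belonged to Tbrg4, an RNA-binding protein of mitochondrial transcripts, at -0.28 (SE 0.12), and Cox19, a copper-handling factor, at 0.27 (SE 0.13). Among 19 assembly genes of the other complexes the median was -0.013, with Tmem126b at 0.29 and Ttc19 at 0.15. The 76 mitochondrial ribosome genes had a median of -0.010, with Mrps2 at -0.27 and Mrpl16 at 0.33. The 13 genes of mitochondrial DNA copying and transcription had a median of 0.015, with Polg, the DNA polymerase, at 0.21 and Top1mt, a topoisomerase, at 0.29.

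In metabolism next to the chain, 12 ubiquinone synthesis genes had a median of 0.053. Coq8b, an ADCK-family protein needed for ubiquinone, had the largest difference among them, 0.68 (SE 0.18, limma adjusted p = 0.304), and Coq4 followed at 0.22. In the citric acid cycle, with a median of -0.012 over 13 genes, Suclg2, a subunit of succinyl-CoA ligase, differed by 0.44 (SE 0.11, limma adjusted p = 0.269), and Ogdh by 0.13. The 8 other genes of electron entry to ubiquinone had a median of 0.003, with Prodh at -0.27 (-0.042 without PTIP+ mouse 3) and Sqor at 0.12 (0.050 without PTIP+ mouse 1). The 15 genes of cristae and inner membrane organisation had a median of -0.059, with Crls1 at -0.13 and Micos13 at -0.14. The carriers of ADP, ATP and metabolites, 6 genes, had a median of -0.038, with Slc25a31 at -0.13 and Vdac3 at -0.069. The Slc25a31 probe set was dim, at a level of 3.48. The brightest of the 6, Slc25a4 at 13.7, differed by -0.015.

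Among 13 regulators of mitochondrial genes, the median difference was -0.108, with 6 genes higher and 7 lower. Esrrb, an estrogen-related receptor, differed by 0.63 (SE 0.14, limma adjusted p = 0.200), with all PTIP KO mice above all PTIP+ mice. Ppargc1b, a coactivator of mitochondrial genes, differed by -0.30 (SE 0.12, limma adjusted p = 0.508), with all PTIP KO mice below. The better known coactivator Ppargc1a, chosen for mention after its values were seen, differed by 0.09 (SE 0.11). No gene of the cell type marker lists passed (limma, adjusted p under 0.05), and 3 were lower at an unadjusted p under 0.05, 2 of leukocytes and 1 of erythroid cells, where 3.8% of all genes were. The mean over each marker list overlapped between the groups. It was 13.37 to 13.44 in the PTIP KO mice and 13.42 to 13.45 in the PTIP+ mice for cardiomyocytes (7 of 8 genes lower). For fibroblasts it was 10.52 to 10.69 against 10.52 to 10.68 (4 of 8 lower), and for endothelial cells 10.18 to 10.40 against 10.09 to 10.52 (4 of 8 lower). For mural cells it was 9.44 to 9.74 against 9.41 to 9.56 (1 of 8 lower), and for leukocytes 6.72 to 7.23 against 7.12 to 7.21 (7 of 9 lower). The mesothelial, adipocyte and erythroid lists read low, with 6 of 7, 1 of 5 and 2 of 3 genes lower. The mesothelial mean varied most, from 4.79 to 7.14 in the PTIP KO mice and from 5.80 to 6.90 in the PTIP+ mice. The part of the cell make-up in the respiratory chain values was not tested.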

How the data were processed

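Arrays were hybridised with RNA from the left ventricular apex of 6 mice, 1 array each, after NuGen Ovation biotin labelling. The submitters' processing notes name RMA, and the deposited values were taken as log2 expression because RMA reports that scale and they span 1.36 to 14.1. RMA aligns the arrays' distributions, so a change in total RNA cannot be seen. Of 45101 probe sets, 64 controls were left out. The platform annotation gave 1 gene for 34945 of the 45037 tested, several for 932 and none listed for 9160, and symbols were updated through Entrez identifiers for 34741. For all 190 probe sets of the 96 genes both symbols met the rule. A further 10 probe sets name such a gene beside another and were not used as representatives.

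The comparison was fitted in R 4.3.3 using limma 3.58.1 (lmFit, then eBayes; group as the only term, median 7.39 degrees of freedom), with Benjamini-Hochberg adjustment over all probe sets. Tested on simulated data, 45037 probe sets with 3 mice a group, it recovered 53 of 100 changes of 1 and 87 of 100 changes of 2 (log2). The number of arrays limits precision. The limma p-values rest on the spread between these mice after moderation, which for bright genes is set largely by the spread of all probe sets. Named genes were Paxip1, up to 3 per class with the smallest p, the complex IV isoform pairs and up to 2 per further list; others were chosen after their values were seen. Genes and lists were chosen with earlier results of these data known. The alternatives are given in the closing section.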

Additional observations from a re-analysis of the deposited data

How the results depend on the processing

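In all alternatives that were run (variance trend, robust prior, array weights, centring, renewed quantile normalization, a filter on dim probe sets, averaging each gene's probe sets, no moderation, the replicate block, 1 mouse left out, and only the 4 arrays whose labelled numbers begin alike, PTIP KO mouse 3 and all PTIP+ mice), none of the 96 genes passed, with adjusted p no lower than 0.309, and none of the further listed genes passed in those run for them. Correlations between the deviations of mice with the same replicate number were -0.151, -0.082 and -0.011. Those between different numbers ran from -0.182 to 0.204. Deviations within a group of 3 sum to 0, so these values cannot decide whether mice were paired. With the replicate block the smallest limma adjusted p among the 96 was 0.562. Over all genes 52 passed, against 111 with a variance trend, 106 with array weights, 124 with averaged probe sets, 30 with a robust prior, 0 with the replicate block, without moderation or on the 4 alike arrays, and 0 to 13 with 1 mouse left out. The Paxip1 difference passed with array weights (-1.07) and with averaged probe sets (-1.47).

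Centring turned the median differences to 0.017 (all 96), 0.016, 0.00765, 0.00728, 0.036 and 0.018 (complexes I to V), against 0.063 over all genes. It left 1 gene of the 96 apart downwards (3.93% of all genes). On the 4 alike arrays, with a lone PTIP KO mouse assumed to vary like the others, the complex IV median was 0.021, 30 genes were apart downwards (20.0% of all genes) and 0 were lower at an unadjusted p under 0.05. That last count was 4 with a variance trend, 8 without moderation and 2 with the mean of probe sets, and 1 gene was higher in the latter pair of settings. With 1 mouse left out, medians ranged from -0.034 to -0.017 (all), -0.042 to -0.024 (I), -0.069 to -0.014 (II), -0.059 to -0.010 (III), -0.032 to -0.00548 (IV) and -0.038 to -0.012 (V), genes apart downwards from 21 to 28 (10.3% to 11.0% of all genes), genes lower at an unadjusted p under 0.05 from 0 to 1 and genes higher from 0 to 1. Counts of genes apart were recomputed as a choice made after seeing the data.

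Signs of single differences turned in some alternatives, including those of Cox8c (-0.13) and Ndufb4 (-0.25), which were not near 0. With the mean of probe sets they turned for Atp5g2 (-0.065), Cox7a2 (-0.014) and Cox8a (-0.145). Quantile normalization turned Cox7a2 (-0.00778), and centring turned Cox6a1 (0.00643), Cox8b (0.025) and Sdhc (0.018). On the 4 alike arrays they turned for Cox6a1 (0.039), Cox6a2 (-0.016), Cox8c (0.027) and Ndufb4 (0.046). With 1 mouse left out, ranges that crossed 0 were -0.012 to 0.130 (Atp5g2), -0.00748 to 0.166 (Cox4i2), -0.012 to 0.038 (Cox6a2), -0.0063 to 0.034 (Cox7a2), -0.032 to 0.000115 (Cox8b), -0.087 to 0.018 (Sdha) and -0.295 to 0.087 (Slc25a31). In all, leaving out 1 mouse moved 33 of 48 named differences by over 1.5 times, 7 of them across 0. The causes were not tested.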

Other observations

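A further 10 probe sets name a gene of the chain together with another gene. Their differences ran from -0.114 to 0.215, the extremes on dim probe sets that name Ndufa13 with Yjefn3, and none had an unadjusted limma p under 0.05. The probe set that names Ndufs6, an accessory subunit of complex I, together with its copy Ndufs6b read 12.97 in the PTIP KO mice and 12.99 in the PTIP+ mice, a difference of -0.014 (SE 0.107). The brighter probe set that names Ndufa11 with Ndufa11b, differed by -0.032 (SE 0.108). The bright Ndufb4 probe sets, which also name Ndufb4b and Ndufb4c, differed by -0.032 and -0.024 at levels of 12.9 and 12.2, against -0.25 for the dim probe set that names Ndufb4 alone. The Ndufab1 probe set, shared with a pseudogene, differed by -0.113 at 11.5. Near-identical copies share such probes, and the array cannot assign the signal to a copy.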
